A study of Mus musculus with 27 samples.

Results

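The livers of 3 female Kdm5b knockout (KO) mice were compared with the livers of 3 female control (WT) mice after 4 weeks of resolution from diet and alcohol feeding. The libraries were grouped by the sample labels, with earlier results of these data known, and they are 6 of the 27 libraries of the series. All 6 mice were females of the floxed line Kdm5b fl/fl on the B6/J background given in the methods, so the WT mice also carried the floxed alleles. They were fed a Western diet and drank water with alcohol (WDA) for 16 weeks by the labels, starting as young adults. By the labels, AAV-CMV-Cre (KO) or AAV-control (WT) was given between feeding and resolution. The paper describes a liver biopsy at alcohol cessation and a return to chow and plain water (the resolution phase, Res). Its account of that design gives a longer feeding time than these labels, and the labels do not mention a biopsy. The CMV promoter is not restricted to 1 cell type, and the RNA came from whole liver. The question of the comparison was how loss of Kdm5b alters the liver transcriptome while the organ recovers from alcohol.

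KDM5B removes methyl groups from lysine 4 of histone H3, a mark of active promoters, together with its relatives KDM5A and KDM5C. Hepatocytes are secretory cells, and their endoplasmic reticulum (ER) holds chaperones and disulfide isomerases that fold secreted proteins, whose genes are induced through the unfolded protein response (UPR) by the sensors IRE1 (Ern1), PERK (Eif2ak3) and ATF6. Hepatocytes also store neutral fat in lipid droplets coated by perilipins and CIDE proteins, and in mice they secrete the major urinary proteins, whose genes respond to growth hormone.

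Library totals were 16954354 to 18456586 estimated counts, and 12402 to 13373 genes reached 10 counts in a library. Levels are given as CPM, estimated counts scaled to the library total with TMM factors, and mice are always listed in the order WT 1, 12 and 13 and KO 2, 3 and 4. The 10 hepatocyte markers summed to 117700 to 180700 CPM in the WT mice and 166900 to 195600 CPM in the KO mice, so the liver label holds for all 6. The KO mice resembled each other more than the WT mice did, with correlations of log2 CPM between pairs of 0.987 to 0.988 and 0.958 to 0.975. The WT libraries stood apart from each other in 3 ways. WT mouse 1 lay closer to the KO mice (mean r = 0.984) than to the other WT mice (mean r = 0.969). WT mouse 12 had the highest levels of ER and heat shock chaperones. WT mouse 13 carried pancreatic acinar transcripts, with a sum of 398 CPM over 23 markers against 1.36 to 4.2 CPM in the other 5 libraries. It also had the highest sums of ductular markers (552 CPM against 196 to 258 CPM) and scar-associated macrophage markers (646 CPM against 155 to 208 CPM). The gene Spp1 is a member of both lists and enters both sums. Erythroid markers summed to 414, 370 and 316 CPM in the WT mice and 727, 544 and 443 CPM in the KO mice. In whole liver, fewer cells of a type and less RNA per cell cannot be told apart.

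**Figure D1:**
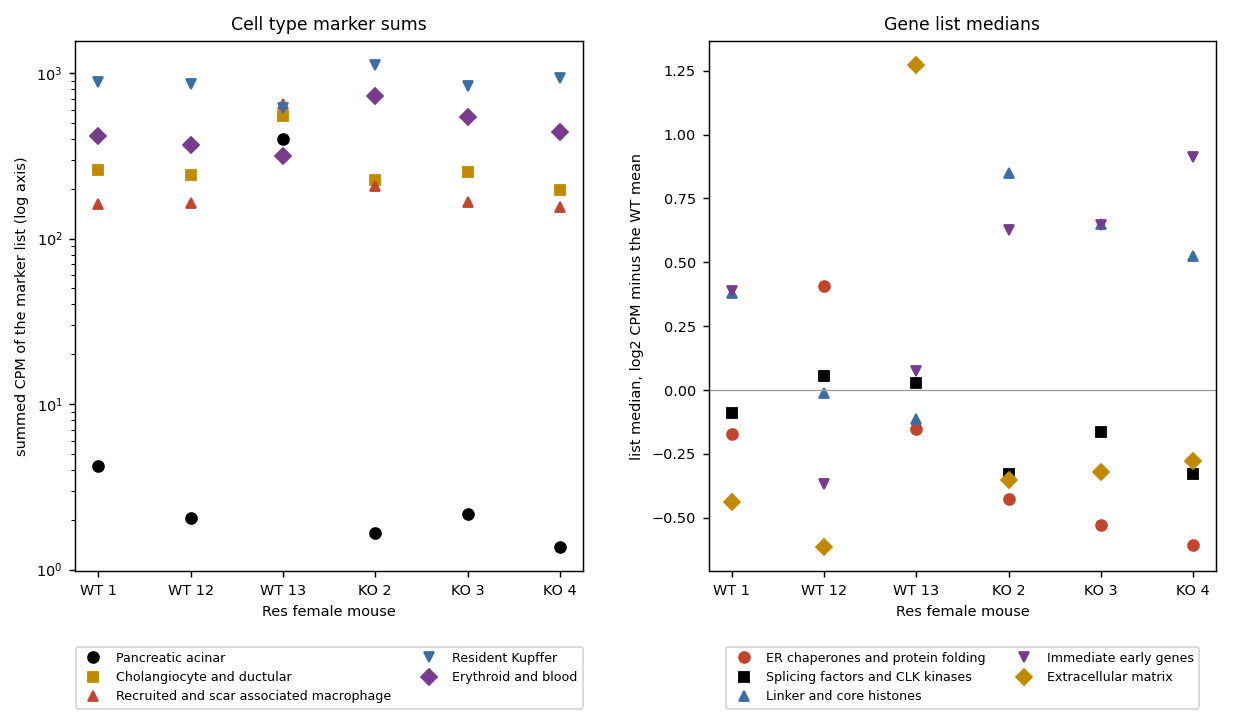
Summed CPM of cell type marker lists in each of the 6 Res female mice on a log axis (left), and the median over each gene list of log2 CPM minus the mean of the 3 WT mice (right), with 1 symbol a mouse. WT mouse 13 stands above the other 5 mice for acinar, ductular and scar-associated macrophage markers.

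Of 12577 genes tested with edgeR, none reached an adjusted p under 0.05 (0% of genes), and the smallest adjusted p was 0.0794, with 130 genes under 0.10. At an unadjusted p under 0.05, 946 genes were higher (7.52%) and 1467 lower (11.7%) in KO, and with library totals as they stand, without a scaling factor, 366 and 2387. In 1421 genes (11.3%) every KO mouse was above every WT mouse, and in 1824 genes (14.5%) every KO mouse was below. DESeq2 called 219 genes higher (1.74%) and 388 lower (3.08%). The shares of members given for each group of genes are to be read against these shares of all genes. WT mouse 1 was the WT mouse nearest to the KO mice in 919 of the 1421 genes that lay above and in 1232 of the 1824 that lay below, and without it edgeR called 343 genes higher and 509 lower. An exact two-sided permutation test of 1 gene over these 6 mice could not go below 0.1. In the accounts of single genes, fold changes are given with their standard errors from edgeR, and a gene is counted as higher or lower, or said to pass, where its unadjusted p in edgeR's quasi-likelihood test was under 0.05.

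Kdm5b itself, at chromosome 1, 134560178 to 134632878 (GRCm38.p6), was lower in all 3 KO mice. Its level was 16.95, 18.3 and 18.3 CPM in the WT mice and 12.4, 13.3 and 10.8 CPM in the KO mice, with means of 17.9 ± 0.789 and 12.2 ± 1.29 CPM (SD over 3 mice). The groups did not overlap (log2 fold change -0.55 ± 0.13, adjusted p = 0.109 by edgeR and 0.0527 by DESeq2). Values are per gene and do not separate the floxed exons from the others, so transcript that lacks them would still be counted. Per length, Kdm5c was the most abundant of the KDM5 genes tested, and the authors' FPKM averaged 3.17 in WT and 1.91 in KO for Kdm5b, against 3.66 and 4 for Kdm5a and 11.8 and 7.05 for Kdm5c.

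In the list of KDM5 and other histone demethylase genes, Kdm5c, the X-linked relative of Kdm5b, was also lower, at 69.3, 100.5 and 74.1 CPM in WT and 50.1, 58.4 and 55.96 CPM in KO (log2 fold change -0.57 ± 0.16, edgeR adjusted p = 0.135). The highest KO mouse lay below the lowest WT mouse. Kdm2a, a demethylase of H3 lysine 36 that binds CpG islands, was lower as well (log2 fold change -0.42 ± 0.13), while Kdm5a was at 41.4, 35.8 and 34.4 CPM in WT and 40.96, 48.2 and 46.9 CPM in KO (log2 fold change 0.29 ± 0.12), with WT mouse 1 inside the range of the KO mice. Of 8 members of this list tested, 1 was higher and 3 lower (against 7.52% and 11.7% of all genes), with a median log2 fold change of -0.09 against -0.02 over all genes. The opposing enzymes, the H3K4 methyltransferase complexes, had 5 of 12 members lower and 0 higher, with a median of -0.25. Kmt2a, the catalytic subunit of the MLL1 complex, was at 46.2, 43.5 and 59.8 CPM in WT and 32.4, 35.5 and 30.6 CPM in KO (log2 fold change -0.60 ± 0.15, DESeq2 adjusted p = 0.0264). Its core partner Rbbp5 (log2 fold change -0.39), Men1 (-0.34), Setd1b (-0.31) and the CpG-binding subunit Cxxc1 (-0.28) were the other members lower, each by less than 1.5-fold.

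**Figure D2:**
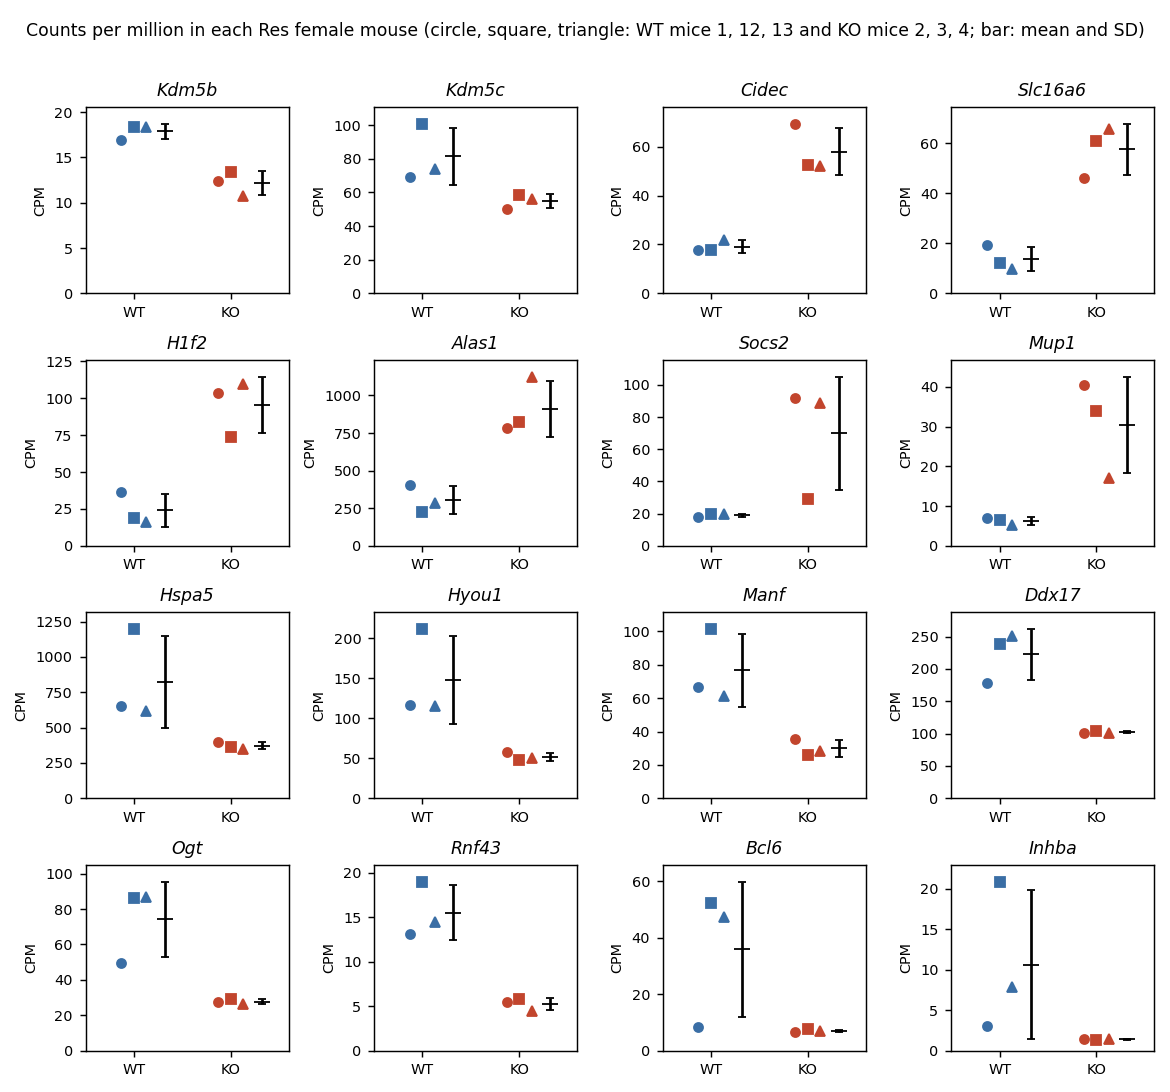
CPM (linear axis from 0) of 16 genes in each mouse, WT left and KO right, with 1 symbol a mouse and bars for mean and SD. Kdm5b, Kdm5c, Hspa5, Hyou1, Manf, Ddx17, Ogt, Rnf43, Bcl6 and Inhba lie lower in all 3 KO mice, and Cidec, Slc16a6, H1f2, Alas1, Socs2 and Mup1 lie higher.

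The ER chaperones and protein folding list had the highest share of genes lower in the KO livers among the lists with 10 or more genes tested. The lists were chosen with earlier results of these data known, so this rank describes the list and does not test it. Of its 27 members, 17 were lower at p under 0.05 (against 11.7% of all genes) and 0 higher, 18 lay below without overlap (against 14.5%), and DESeq2 called 10 lower (against 3.08%). The median log2 fold change was -0.57, and 26 of 27 members had a negative value. Summed over the list, levels were 5058, 7408 and 5067 CPM in the WT mice and 4316, 4120 and 3860 CPM in the KO mice. WT mouse 12 was the highest throughout most of the list, and WT mice 1 and 13 mostly lay between it and the KO mice. Without WT mouse 12 the median was -0.31 with 11 genes lower, and the count was 11 without KO mouse 3 and 10 without KO mouse 4. The share of all genes lower was 9.64% without WT mouse 12 and 7.73% without KO mouse 3 or KO mouse 4.

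Hspa5, the central ER chaperone BiP at chromosome 2, 34772090 to 34776529, was at 649, 1196 and 618 CPM in the WT mice and 398, 362 and 349.7 CPM in the KO mice (log2 fold change -1.15 ± 0.26, adjusted p = 0.109 by edgeR and 0.000636 by DESeq2). The 3 KO mice lay within a narrow band below the lowest WT mouse. Its nucleotide exchange partner Hyou1 was at 117, 211 and 115 CPM in WT and 57.6, 47.9 and 50.7 CPM in KO (log2 fold change -1.50 ± 0.24, adjusted p = 0.0794 by edgeR and 1.42e-06 by DESeq2). Manf, a secreted protein that binds BiP, was at 66.96, 101 and 61.4 CPM in WT and 35.6, 26.1 and 28.2 CPM in KO (log2 fold change -1.35 ± 0.21, adjusted p = 0.0794 by edgeR and 3.3e-06 by DESeq2). In these genes the WT mean was 2.22 times (Hspa5), 2.84 times (Hyou1) and 2.56 times (Manf) the KO mean. Sdf2l1, a cofactor of ER J proteins, was at 9.71, 19.8 and 10.96 CPM in WT and 4.93, 3.11 and 2.38 CPM in KO (log2 fold change -1.96 ± 0.35). The disulfide isomerase-like protein Creld2 was at 22.01, 45.8 and 23.1 CPM in WT and 12.5, 10.9 and 11.1 CPM in KO (log2 fold change -1.40 ± 0.28). Both had all KO mice below all WT mice. Pdia4, a disulfide isomerase, was at 137, 296 and 158 CPM in WT and 89.6, 80.9 and 63.3 CPM in KO (log2 fold change -1.34 ± 0.29), and its relative Pdia6 was lower by a smaller margin (log2 fold change -0.77 ± 0.19). The ER-associated degradation ligase Syvn1 (log2 fold change -0.83 ± 0.20), the J protein Dnajb9 (log2 fold change -0.81 ± 0.25) and the lectin chaperone Calr (log2 fold change -0.68 ± 0.22) were also lower.

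Not every ER folding gene took part. Hsp90b1, the ER form of HSP90, was at 539, 909.6 and 499.6 CPM in WT and 495, 489 and 388 CPM in KO (log2 fold change -0.51 ± 0.24), with no overlap but with KO mice 2 and 3 close to the lower WT mice. Dnajc3, an inhibitor of PERK, was near equal in both groups (log2 fold change -0.09 ± 0.17), as was the abundant disulfide isomerase P4hb (log2 fold change -0.06 ± 0.14). Sil1, another exchange factor of BiP, was the 1 member with a positive value (0.12 on the log2 scale).

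**Figure D3:**
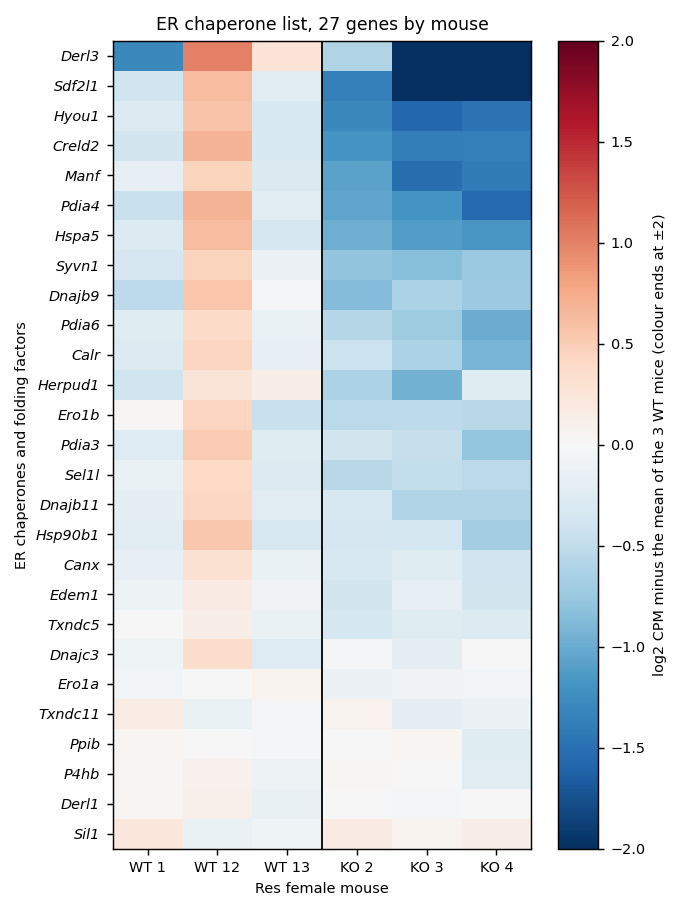
Heat map of the 27 genes of the ER chaperones and protein folding list (rows) in the 6 mice (columns), coloured by log2(CPM + 0.1) minus the mean of the 3 WT mice, with colour ending at 2 either way. The KO columns are blue in the upper rows, from Derl3 to Calr, and near white in the lowest rows, from Dnajc3 to Sil1, and the column of WT mouse 12 is red in the upper rows.

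The ER stress response element (ERSE), a promoter motif bound by NF-Y together with ATF6 or XBP1, was looked for in RefSeq promoter windows (GRCm38.p6, 250 bases before to 50 after each start) as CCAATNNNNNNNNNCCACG on both strands. It is found in 10 of the 23 genes of the ER list that have a window (43.5%) and in 37 of 27025 genes in all (0.137%). The stretches below are those of 5 genes that were lower in the KO livers and of Dnajc3, which was not, to show that the motif is present in both. The ERSE is in capitals, and where it is on the other strand it reads in reverse complement.

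Hspa5, chr2:34771985-34772083, plus strand: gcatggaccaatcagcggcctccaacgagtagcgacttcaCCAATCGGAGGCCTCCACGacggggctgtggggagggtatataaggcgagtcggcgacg
Creld2, chr15:88819480-88819578, plus strand: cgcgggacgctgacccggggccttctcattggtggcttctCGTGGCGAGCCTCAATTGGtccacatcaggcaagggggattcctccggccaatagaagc
Syvn1, chr19:6046492-6046590, plus strand: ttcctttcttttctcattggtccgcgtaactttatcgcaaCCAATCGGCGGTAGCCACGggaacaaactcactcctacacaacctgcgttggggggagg
Pdia6, chr12:17266451-17266549, plus strand: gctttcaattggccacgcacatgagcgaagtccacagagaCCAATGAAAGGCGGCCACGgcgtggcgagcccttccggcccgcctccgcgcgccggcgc
Calr, chr8:84847035-84847133, minus strand: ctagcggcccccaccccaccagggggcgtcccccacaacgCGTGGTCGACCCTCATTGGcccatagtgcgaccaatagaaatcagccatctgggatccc
Dnajc3, chr14:118937787-118937885, plus strand: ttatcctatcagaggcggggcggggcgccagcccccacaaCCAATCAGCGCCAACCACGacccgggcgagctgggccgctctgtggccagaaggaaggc

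The first base of these elements lies 65 (Hspa5), 126 (Creld2), 44 (Syvn1), 98 (Pdia6), 162 (Calr) and 105 (Dnajc3) bases before the start site. Of the 10 ER list genes that hold the motif, 7 were lower at p under 0.05 (median log2 fold change -0.73), and of the 13 whose window does not hold it, 8 were (median -0.53). Of 10043 tested genes with a window, 18 hold it (0.179%), and of these 10 were lower at p under 0.05, 0 were higher, and 17 had a negative value. Outside the ER list, 3 of 8 were lower, among them Alg12, an ER mannosyltransferase (log2 fold change -0.85 ± 0.23). Acacb was the 1 with a positive value (log2 fold change 0.56 ± 0.28). A match of letters is a description of the window and no sign of binding.

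The UPR sensors and factors were divided. Of 15 genes tested, 4 were lower and 2 higher at p under 0.05, with a median of -0.03, and DESeq2 called 2 lower. Ern1, which encodes the sensor IRE1, was at 35.5, 68.5 and 56.9 CPM in WT and 24.8, 24.6 and 30.6 CPM in KO (log2 fold change -1.01 ± 0.23, DESeq2 adjusted p = 0.00431). Eif2ak3, the sensor PERK, was at 17.2, 23.7 and 21.3 CPM in WT and 15.1, 13.98 and 14.4 CPM in KO (log2 fold change -0.52 ± 0.14), again with no overlap. The membrane-bound factor Creb3l2 was at 12.4, 20.4 and 14.3 CPM in WT and 7.95, 5.99 and 7.83 CPM in KO (log2 fold change -1.11 ± 0.22). Ddit3, the proapoptotic factor CHOP downstream of PERK, was at 2.87, 7.78 and 8.59 CPM in WT and 1.37, 3.47 and 2.89 CPM in KO (log2 fold change -1.32 ± 0.47), but WT mouse 1 lay among the KO mice. Ppp1r15a, which reverses PERK signaling, was higher (log2 fold change 0.59 ± 0.20). The factors Xbp1 (log2 fold change -0.30 ± 0.19), Atf6 (log2 fold change -0.18 ± 0.12) and Atf4 (log2 fold change 0.37 ± 0.17) were among the 9 genes that did not pass. In the ATF4 and amino acid response list, 4 of 14 genes were higher and 0 lower, with a median of 0.27.

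Single cytosolic chaperone genes were lower too, but the list as a whole lay below WT mouse 12 only. Summed over the list, levels were 3271, 5194 and 3089 CPM in the WT mice and 3726, 3273 and 3407 CPM in the KO mice. Of 21 genes in the cytosolic heat shock response list, 6 were lower and 2 higher at p under 0.05, and the median of -0.30 became 0.08 without WT mouse 12. Chordc1, an HSP90 cochaperone, was at 16.3, 47.7 and 21.7 CPM in WT and 9.02, 7.81 and 9.19 CPM in KO (log2 fold change -1.72 ± 0.37). Hsph1, an exchange factor of HSP70, was at 22.8, 108 and 35.5 CPM in WT and 20.4, 17.4 and 18.3 CPM in KO (log2 fold change -1.57 ± 0.51). WT mouse 12 had by far the highest level of both, while WT mouse 1 was next to the KO mice. The same held for the inducible HSP70 gene Hspa1b, at 1.90, 45.1 and 6.96 CPM in WT and 1.37, 0.352 and 0.965 CPM in KO (log2 fold change -4.32 ± 1.15), whose reads can be shared with its near-identical neighbor Hspa1a. The heat shock factor Hsf2 was at 14.3, 33.1 and 18.1 CPM in WT and 9.62, 10.3 and 8.91 CPM in KO (log2 fold change -1.18 ± 0.29). The small heat shock protein Hspb8 went the other way in every mouse, from 185, 163 and 136 CPM in WT to 249, 304 and 290.3 CPM in KO (log2 fold change 0.80 ± 0.16), and Hspb1 was higher as well (log2 fold change 0.74 ± 0.28). The mitochondrial chaperones Hspd1 (log2 fold change 0.01 ± 0.16) and Hspe1 (log2 fold change 0.14 ± 0.14) and the cytosolic Hsp90aa1 (log2 fold change -0.12 ± 0.35) differed by less than their spread.

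The heat shock element, as GAA, 2 of any base, TTC, 2 of any base and GAA, searched on both strands, is in 4 of 17 genes of the heat shock list with a window (23.5%) and in 0.662% of all genes with one. It is shown in capitals for the pair of holders that were lower in KO; in Chordc1 3 overlapping copies form 1 run, and in Hsph1 the copy lies after the start site and reads in reverse complement. The other holders in the list, Hspd1 and Hspe1, did not pass. Of all 54 tested genes whose window holds the element, 5 were lower and 3 higher (against 11.7% and 7.52% of all genes). A negative value was found in 28 of the 54, with a median log2 fold change of -0.02.

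Chordc1, chr9:18292223-18292316, plus strand: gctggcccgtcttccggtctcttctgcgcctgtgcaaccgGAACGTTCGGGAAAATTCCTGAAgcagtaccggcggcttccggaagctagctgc
Hsph1, chr5:149636287-149636340, minus strand: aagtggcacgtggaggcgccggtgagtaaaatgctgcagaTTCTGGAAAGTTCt

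RNA processing genes formed another lower group. In the splicing factors and CLK kinases list, 17 of 33 genes were lower and 2 higher at p under 0.05 (against 11.7% and 7.52% of all genes). Without overlap, 16 lay below and 4 above (against 14.5% and 11.3%). DESeq2 called 8 lower and 0 higher (against 3.08% and 1.74%), and the median was -0.28. Ddx17, an RNA helicase and splicing cofactor, was at 177, 239 and 250.2 CPM in WT and 102, 104 and 102 CPM in KO (log2 fold change -1.12 ± 0.15, adjusted p = 0.0794 by edgeR and 4.6e-08 by DESeq2). Snrnp70, the U1 snRNP component, was at 116, 119 and 125 CPM in WT and 76.3, 75.5 and 78.04 CPM in KO (log2 fold change -0.65 ± 0.10, edgeR adjusted p = 0.0794). In both, the KO mice were almost identical to each other. The kinases that phosphorylate SR proteins, Clk3 (log2 fold change -0.71 ± 0.11) and Clk1 (log2 fold change -0.83 ± 0.19), and the U1-associated Luc7l3 (log2 fold change -0.94 ± 0.21) were lower, along with the SR protein gene Srsf1 (log2 fold change -0.66 ± 0.16) and Pnisr (log2 fold change -0.53 ± 0.11). Cirbp, a cold-inducible RNA-binding protein, was higher, at 47.6, 13.7 and 30.8 CPM in WT and 60.3, 53.4 and 58.1 CPM in KO (log2 fold change 0.90 ± 0.37), with WT mouse 12 the lowest.

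The 15 genes lower with the smallest p had varied functions. Rbm10 (log2 fold change -1.06 ± 0.15) and Rbm5 (log2 fold change -1.18 ± 0.18), which regulate exon inclusion, Khdc4 (log2 fold change -1.37 ± 0.21), the exosome cofactor Zfc3h1 (log2 fold change -1.43 ± 0.22) and Rsrp1 (log2 fold change -1.31 ± 0.20) act on RNA or resemble proteins that do, as does Ddx17. Ogt, the transferase that adds O-GlcNAc to nuclear and cytosolic proteins, was at 49.5, 86.3 and 86.7 CPM in WT and 27.8, 29.01 and 26.3 CPM in KO (log2 fold change -1.42 ± 0.21, adjusted p = 0.0794 by edgeR and 7.94e-07 by DESeq2). Its opposing hydrolase Oga was higher (log2 fold change 0.48 ± 0.15) and Gfpt1, which feeds the pathway with hexosamine, was lower (log2 fold change -0.67 ± 0.18). Rnf43, a ubiquitin ligase that removes Wnt receptors from the cell surface, was at 13.1, 19.02 and 14.5 CPM in WT and 5.46, 5.87 and 4.48 CPM in KO (log2 fold change -1.56 ± 0.19, adjusted p = 0.0794 by edgeR and 2.25e-07 by DESeq2). It had the smallest p of all lower genes named by the rule. Celsr1, a planar polarity cadherin, was at 24.1, 29.97 and 30.3 CPM in WT and 14.4, 12.9 and 11.7 CPM in KO (log2 fold change -1.11 ± 0.14). Kctd21 was at 4.89, 14.4 and 10.6 CPM in WT and 1.42, 1.76 and 1.53 CPM in KO (log2 fold change -2.66 ± 0.40), the largest difference among these 15. The others were Tmem25 (-1.63 on the log2 scale), Fam193b (-0.69), Edrf1 (-0.96), Ndrg3 (-0.80) and Manf. In 14 of the 15, WT mouse 1 was the WT mouse nearest to the KO mice.

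Single genes of the lipid droplet and of ketone transport were among those higher in KO with the smallest p. In the lipid droplet proteins list, 5 of 18 genes were higher at p under 0.05, without overlap and by DESeq2, and 0 were lower, with a median of 0.24 that was 0.52 without WT mouse 12, 0.12 without WT mouse 13 and 0.38 without KO mouse 2. Cidec, which fuses lipid droplets, at chromosome 6, 113424634 to 113435760, had the smallest p of all genes. It was at 17.6, 17.9 and 22.01 CPM in WT and 69.2, 52.6 and 51.99 CPM in KO, or 19.2 ± 2.47 and 57.9 ± 9.73 CPM (SD over 3 mice), a 3.02-fold difference (log2 fold change 1.59 ± 0.16, adjusted p = 0.0794 by edgeR and 1.57e-13 by DESeq2). Hilpda, an inhibitor of the triglyceride lipase ATGL, was at 6.26, 5.96 and 6.27 CPM in WT and 11.3, 11.9 and 16.2 CPM in KO (log2 fold change 1.09 ± 0.18). The gene of that lipase, Pnpla2, was itself higher, at 208, 92.2 and 146 CPM in WT and 408, 219.5 and 347 CPM in KO (log2 fold change 1.13 ± 0.32). Plin5, the perilipin that tethers droplets to mitochondria, was at 158, 112 and 104 CPM in WT and 181, 196 and 213 CPM in KO (log2 fold change 0.66 ± 0.18), whereas Plin2, the main perilipin of fatty liver, did not pass (log2 fold change 0.21 ± 0.24). Slc16a6, a hepatic exporter of the ketone body beta-hydroxybutyrate, was at 19.1, 12.3 and 9.62 CPM in WT and 46.1, 60.7 and 65.5 CPM in KO, 4.21 times higher (log2 fold change 2.07 ± 0.26, adjusted p = 0.0794 by edgeR and 3.65e-11 by DESeq2). Of 11 monocarboxylate transporters 2 were higher and 0 lower. Of 27 genes of fatty acid oxidation, ketogenesis and PPARalpha targets, 2 were higher and 0 lower.

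Histone genes stood higher in the KO livers. In the linker and core histones list, 4 of 7 genes tested were higher, 0 lower, and the median was 0.65. The linker histone H1f2 was at 36.7, 18.9 and 16.4 CPM in WT and 103, 73.8 and 109 CPM in KO (log2 fold change 1.995 ± 0.31, adjusted p = 0.0794 by edgeR and 3.64e-08 by DESeq2). The replication-independent histone gene H3f3b was at 269.6, 130.2 and 166 CPM in WT and 684, 645 and 636 CPM in KO (log2 fold change 1.80 ± 0.26, edgeR adjusted p = 0.0794), while H3f3a, which encodes the same H3.3 protein, was equal between groups (log2 fold change 0.01 ± 0.11). H1f0, the linker histone of resting cells, was at 178, 134 and 103 CPM in WT and 312, 220.0 and 274 CPM in KO (log2 fold change 0.96 ± 0.22). WT mouse 1 was the highest WT mouse in all 3.

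Immediate early genes, transcription factor genes that respond within minutes to growth factors or handling, had 9 of 22 members higher and 0 lower, with a median of 0.69. Klf2 was at 8.22, 6.98 and 10.9 CPM in WT and 21.1, 16.7 and 22.99 CPM in KO (log2 fold change 1.22 ± 0.20). Nr4a1, an orphan nuclear receptor, was at 7.41, 3.97 and 5.13 CPM in WT and 10.7, 14.3 and 23.1 CPM in KO (log2 fold change 1.54 ± 0.33), and Fos was at 3.33, 1.87 and 2.12 CPM in WT and 4.63, 7.99 and 13.1 CPM in KO (log2 fold change 1.81 ± 0.40). For each the groups did not overlap, and KO mouse 4 was the highest. Atf3 (log2 fold change 2.002 ± 0.50) and Jund (log2 fold change 1.32 ± 0.35) were higher too. Jun was at 108, 23.6 and 25.8 CPM in WT and 73.7, 88.8 and 121 CPM in KO and did not pass (log2 fold change 0.85 ± 0.55), with WT mouse 1 inside the KO range, nor did Egr1 (log2 fold change -0.55 ± 0.56). Erythroid markers were also higher in KO in 4 of 6 genes, and the part of blood content in the immediate early genes was not tested. Without WT mouse 1 the count of immediate early genes was 14 higher and 1 lower, against 12.4% and 14.9% of all genes in that setting.

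Some cytoskeletal and metal-binding genes were also higher. Actb was at 272, 287 and 267 CPM in WT and 491, 482 and 407 CPM in KO (log2 fold change 0.74 ± 0.13), and Actg1, whose sequence is close to that of Actb, at 293, 128 and 202 CPM in WT and 555, 601 and 649 CPM in KO (log2 fold change 1.53 ± 0.28, DESeq2 adjusted p = 2.2e-06). Srf, the transcription factor of actin genes, was higher (log2 fold change 0.64 ± 0.15), as was Tubb2a (log2 fold change 0.68 ± 0.17). In the actin and tubulin list 5 of 19 genes were higher and 0 lower, but the median was only 0.03 and turned negative when libraries were compared with no scaling. The metallothioneins Mt1, at 688, 242 and 349 CPM in WT and 1496, 1184 and 1278 CPM in KO (log2 fold change 1.63 ± 0.35), and Mt2, at 359.5, 73.7 and 185 CPM in WT and 888, 754 and 711 CPM in KO (log2 fold change 1.93 ± 0.48), bind zinc and copper. All KO mice exceeded all WT mice for both. The zinc exporter Slc30a1 was higher (log2 fold change 0.91 ± 0.17), and Mtf1, the zinc-sensing factor that activates these genes, was lower (log2 fold change -0.82 ± 0.27).

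The remaining genes higher with the smallest p came from several pathways. Alas1, the rate-limiting enzyme of heme synthesis, was at 405, 223 and 283 CPM in WT and 782, 826 and 1125 CPM in KO (log2 fold change 1.59 ± 0.25, adjusted p = 0.0794 by edgeR and 4.6e-08 by DESeq2). Cyp26b1, which degrades retinoic acid, was at 13.5, 8.17 and 6.91 CPM in WT and 39.1, 26.7 and 36.3 CPM in KO (log2 fold change 1.84 ± 0.26). The cell cycle inhibitor Cdkn1a (p21) was at 133, 106 and 118 CPM in WT and 208, 215 and 244 CPM in KO (log2 fold change 0.90 ± 0.14, edgeR adjusted p = 0.0794), whereas Trp53, its best-known activator, was lower (log2 fold change -0.86 ± 0.25). The chemokine Ccl6 was at 17.2, 11.1 and 15.3 CPM in WT and 41.7, 30.01 and 32.6 CPM in KO (log2 fold change 1.25 ± 0.19). Suco, a membrane protein of the ER, was at 27.01, 23.4 and 25.2 CPM in WT and 47.4, 48.1 and 51.6 CPM in KO (log2 fold change 0.96 ± 0.11). The ubiquitin ligase Rnf144a was at 25.7, 24.2 and 25.7 CPM in WT and 45.5, 45.05 and 42.5 CPM in KO (log2 fold change 0.81 ± 0.10), with each group inside a narrow range. Ccdc86 (1.12 on the log2 scale), Tdrp (0.96) and D16Ertd472e (1.16) complete the 15 with Mup1, Mup11 and the genes above. As on the lower side, WT mouse 1 was nearest to KO in 14 of the 15.

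Major urinary protein genes had the largest median difference among the lists with 10 or more genes tested, a rank that describes them and does not test them. In the major urinary proteins list, 12 of 19 genes were higher and 1 lower at p under 0.05, 15 had no overlap, and the median log2 fold change was 1.54, but DESeq2 called only 3. Summed over the family, levels were 13780, 13010 and 2765 CPM in WT and 22180, 25880 and 21540 CPM in KO. WT mouse 13 was by far the lowest, and WT mice 1 and 12 were below all KO mice as well. Mup1 was at 6.95, 6.53 and 5.18 CPM in WT and 40.5, 33.8 and 17.1 CPM in KO (log2 fold change 2.29 ± 0.31, DESeq2 adjusted p = 5.96e-10), and Mup11 at 37.9, 36.3 and 17.1 CPM in WT and 270.3, 153 and 109 CPM in KO (log2 fold change 2.55 ± 0.40). The abundant Mup22 was at 8205, 7543 and 1257 CPM in WT and 12011, 14470.0 and 11724 CPM in KO (log2 fold change 1.17 ± 0.57). Mup13 was detected in 1 WT library only, at 0, 0.511 and 0 CPM in WT and 2.26, 4.99 and 2.33 CPM in KO. Mup20, the pheromone darcin, was the exception, at 60.1, 80.8 and 508 CPM in WT and 81.6, 64.8 and 41.8 CPM in KO (log2 fold change -1.79 ± 0.76), where only WT mouse 13 was high. These genes are near-identical copies and the counting tool is not given in the sources used here, so the division of reads among single members is uncertain.

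Several genes of the growth hormone pathway, which drives Mup transcription, also differed. In that list 5 of 16 genes were higher and 4 lower, and DESeq2 called 4 higher and 3 lower. Without KO mouse 2, or without KO mouse 4, 3 were higher and 3 lower. Of all genes, 4.64% were higher and 7.31% lower without KO mouse 2, and 4.56% and 7.73% without KO mouse 4. The feedback inhibitor Socs2, a direct STAT5 target, was at 17.99, 19.6 and 19.5 CPM in WT and 91.6, 29.1 and 88.8 CPM in KO (log2 fold change 1.88 ± 0.38, edgeR adjusted p = 0.103). The WT mice were alike, and the KO mice spread more widely with mouse 3 the lowest. Its relative Cish was higher too (log2 fold change 1.19 ± 0.40). Bcl6, a repressor that competes with STAT5 for its sites, was at 8.33, 52.2 and 47.2 CPM in WT and 6.71, 7.58 and 6.87 CPM in KO (log2 fold change -2.35 ± 0.58, edgeR adjusted p = 0.118). Here WT mouse 1 had a level next to the KO mice, and the difference rested on WT mice 12 and 13. Stat5b was at 52.1, 73.1 and 58.3 CPM in WT and 38.2, 37.9 and 38.1 CPM in KO (log2 fold change -0.68 ± 0.14). The hepatocyte factor Onecut1 was at 7.13, 3.46 and 5.63 CPM in WT and 23.3, 12.4 and 40.4 CPM in KO (log2 fold change 2.23 ± 0.43, DESeq2 adjusted p = 9.35e-06), while Onecut2 was lower (log2 fold change -0.88 ± 0.23). Igfbp1 was higher (log2 fold change 1.38 ± 0.36). Igf1 (log2 fold change 0.26 ± 0.13) and the receptor gene Ghr (log2 fold change -0.04 ± 0.22) did not pass.

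Genes of lipid and sterol metabolism showed smaller differences. LXRalpha (Nr1h3) and LXRbeta (Nr1h2) are nuclear receptors of oxysterols that induce cholesterol efflux and lipogenesis. Neither differed beyond its spread (Nr1h3 log2 fold change 0.11 ± 0.13 and Nr1h2 log2 fold change 0.10 ± 0.11). Of 22 LXR receptors and targets, 3 were higher and 0 lower at p under 0.05 (against 7.52% and 11.7% of all genes). Values were positive in 19 and negative in 3, and 6 lay above without overlap (against 11.3%). The median was 0.22, with no DESeq2 call. Summed over the list, levels were 18960, 16320 and 14800 CPM in the WT mice and 20630, 20730 and 20780 CPM in the KO mice. Srebf1, the lipogenic factor, was at 104, 23.7 and 41.5 CPM in WT and 128, 256 and 173 CPM in KO (log2 fold change 1.72 ± 0.51, DESeq2 adjusted p = 0.132). The LXR-induced ligase Mylip (log2 fold change 0.68 ± 0.20) and the phospholipid enzyme Lpcat3 (log2 fold change 0.51 ± 0.16) were the other members higher. The efflux transporter Abca1 was at 151, 169.7 and 222 CPM in WT and 231, 224 and 202 CPM in KO with overlapping groups (log2 fold change 0.28 ± 0.16), and Abcg1 was equal (log2 fold change 0.00 ± 0.22).

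Of 15 apolipoprotein genes, 2 were higher, 0 lower and 14 had a positive value. Apoc3, an inhibitor of triglyceride clearance, was at 1041, 762 and 867 CPM in WT and 1264, 1329.6 and 1229.7 CPM in KO (log2 fold change 0.52 ± 0.16, DESeq2 adjusted p = 0.0212). Of 24 genes of cholesterol synthesis and uptake, 1 was higher and 1 lower, with a median of -0.01. In bile acid and oxysterol synthesis, Nr0b2, the bile acid-induced repressor SHP, was at 18.4, 54.8 and 51.5 CPM in WT and 17.2, 9.93 and 10.7 CPM in KO (log2 fold change -1.72 ± 0.40, DESeq2 adjusted p = 0.000542). All KO mice were below all WT mice, with WT mouse 1 close to KO mouse 2. Its target Cyp7a1, the rate-limiting enzyme of the classic pathway, was at 212, 54.7 and 65.8 CPM in WT and 73.5, 132 and 54.8 CPM in KO with overlap (log2 fold change -0.35 ± 0.53), and Cyp27a1 of the alternative pathway did not pass (log2 fold change 0.35 ± 0.22). Of the xenobiotic Cyp3a genes, Cyp3a16 was at 8.33, 27.1 and 3.01 CPM in WT and 33.7, 46.7 and 45.8 CPM in KO (log2 fold change 1.72 ± 0.63), and Cyp3a59 did not pass (log2 fold change -0.26 ± 0.26). The other 7 of the 9 members did not pass either.

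Fibrosis-related genes were lower on average in the KO livers, and this did not hold without WT mouse 13. Of 25 genes in the extracellular matrix list, 22 had a negative value and the median was -0.70, but 2 were lower and 1 higher at p under 0.05. Without WT mouse 13 the median was 0.19 with 4 higher and 0 lower, against 7.55% and 10.4% of all genes in that setting. Col1a1, the main chain of type I collagen, was at 3.16, 3.07 and 24.1 CPM in WT and 2.91, 5.05 and 3.12 CPM in KO (log2 fold change -1.46 ± 0.78). The 2 lower WT mice were level with the KO mice. In the matrix metalloproteinases and inhibitors list, the median of -0.47 became 0.32 without that mouse. Mmp2 was at 2.64, 1.99 and 23.7 CPM in WT and 1.72, 2.11 and 2.16 CPM in KO, while Mmp9, a gelatinase of myeloid cells, was at 1.67, 1.19 and 1.38 CPM in WT and 2.43, 3.29 and 2.33 CPM in KO (log2 fold change 0.92 ± 0.30) and was the 1 member higher. Mmp12 (log2 fold change -1.15 ± 0.89) and Tgfb1 (log2 fold change 0.09 ± 0.20) did not pass, and Tnf, Mmp13, Timp1 and Tff3 were too low to test. The scar-associated macrophage genes Spp1, at 28.6, 27.2 and 213 CPM in WT and 14.1, 18.9 and 21.2 CPM in KO, and Gpnmb, at 1.95, 3.07 and 60.3 CPM in WT and 1.42, 3.47 and 1.76 CPM in KO, followed the same mouse. The part of its acinar, ductular and macrophage transcripts in these values was not tested.

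In TGFb, activin and BMP signaling, 6 of 27 genes were higher and 4 lower. Inhba, the activin A subunit, was at 3.10, 20.9 and 7.90 CPM in WT and 1.42, 1.29 and 1.48 CPM in KO (log2 fold change -2.92 ± 0.64, adjusted p = 0.105 by edgeR and 4.64e-05 by DESeq2). The WT mice ranged widely, and all were above the KO mice. Smad3, the receptor-activated mediator of TGFb, was at 13.8, 15.3 and 20.2 CPM in WT and 9.32, 7.81 and 7.09 CPM in KO (log2 fold change -1.03 ± 0.19). The activin-binding antagonist Fst (log2 fold change 1.04 ± 0.33), the SMAD corepressor Skil (log2 fold change 0.68 ± 0.12) and the coreceptor Tgfbr3 (log2 fold change 0.60 ± 0.13) were higher. In Wnt and pericentral zonation 4 of 18 were higher and 4 lower. The Wnt target Axin2 (log2 fold change -0.40 ± 0.16) was lower together with Rnf43, whereas Tcf7 (log2 fold change 0.86 ± 0.23) and the pericentral enzyme Cyp1a2 (log2 fold change 1.06 ± 0.38) were higher.

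Interferon and chemokine genes were higher in KO mice 2 and 3. In the interferon response list 8 of 24 genes were higher and 1 lower. The count of higher genes was 11 without KO mouse 4 and 1 without KO mouse 3. The share of all genes higher was 4.56% without KO mouse 4 and 5.38% without KO mouse 3. Cxcl9, an interferon-gamma-induced chemokine, was at 9.43, 12.9 and 8.09 CPM in WT and 40.1, 42.8 and 10.7 CPM in KO (log2 fold change 1.62 ± 0.46), and the GTPase gene Gbp2 at 6.44, 8.46 and 4.49 CPM in WT and 19, 23.6 and 5.45 CPM in KO (log2 fold change 1.31 ± 0.49). KO mouse 4 had WT levels of both. Ccl5 was higher as well (log2 fold change 1.38 ± 0.45). T and NK cell markers summed to 11.6, 7.72 and 16.8 CPM in WT and 34, 26.8 and 11.1 CPM in KO, with KO mouse 4 the lowest KO mouse here too, and their part in these genes was not tested. The monocyte receptor Ccr2 (log2 fold change -1.36 ± 0.57) was lower and its ligand Ccl2 did not pass (log2 fold change -0.54 ± 0.43). The Kupffer scavenger receptor Cd163, at 36.6, 31.05 and 3.55 CPM in WT and 51.6, 22.7 and 39.8 CPM in KO, did not pass either (log2 fold change 0.68 ± 0.67). Of other named genes, the peptide transporter Slc15a2 was at 10.2, 2.84 and 9.62 CPM in WT and 0.178, 0.470 and 1.42 CPM in KO (log2 fold change -3.43 ± 0.71), and Mroh6 at 0.920, 5.96 and 3.50 CPM in WT and 0.356, 0.470 and 0.397 CPM in KO (log2 fold change -3.06 ± 0.67).

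**Figure D4:**
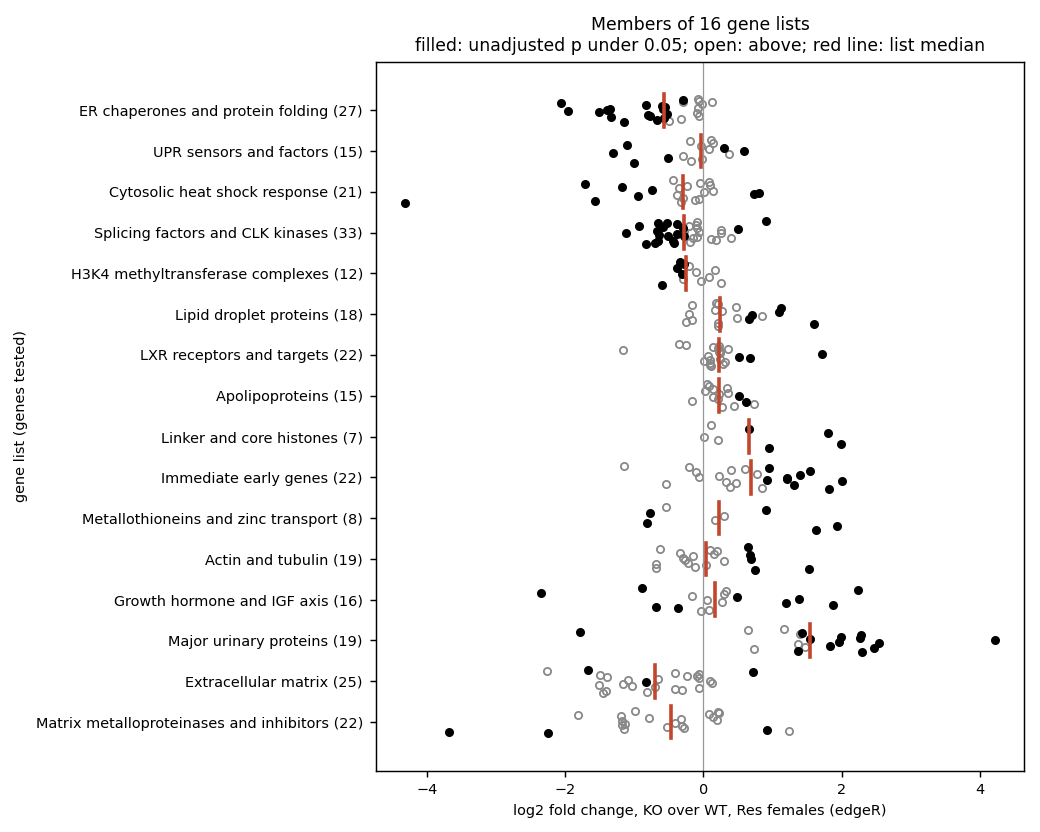
Log2 fold change, KO over WT, of each tested member of 16 gene lists, filled where the unadjusted edgeR p was under 0.05, with a red line at each list's median. The ER list lies almost wholly left of 0 and the histone and major urinary protein lists almost wholly right of it.

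To set these differences beside the other Kdm5b KO comparisons of the series, the members were read in male mice after the same resolution phase and in female mice still on WDA for 8 weeks, neither of which shares a library with the Res females. The WDA females belong to another experiment, in which the AAV (AAV8-CMV-Cre or AAV8-control) was given when feeding began, so the stage of disease, the time of deletion and the experiment cannot be told apart in that comparison. In Res males, 126 genes (0.998%) were higher and 57 (0.452%) lower at an unadjusted p under 0.05, and in WDA females 174 (1.4%) and 211 (1.7%). Neither gave a gene with an edgeR adjusted p under 0.05, and DESeq2 called 7 and 8. Kdm5b had log2 fold changes of -0.55 in Res females, -0.59 ± 0.25 in Res males and -0.54 ± 0.24 in WDA females.

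The ER chaperones and protein folding list did not follow in males. Of its 27 members, 24 had a positive value in Res males and none passed in either direction, with a median of 0.16. In WDA females the median was -0.01 and none passed. Hspa5 was at 561, 671 and 381 CPM in WT males and 602, 450.0 and 907 CPM in KO males (0.30 ± 0.30 on the log2 scale), and at 885, 420.0 and 614 CPM in WT and 639, 351 and 580.0 CPM in KO on WDA (-0.30 ± 0.34). The groups overlapped in both. In the interaction terms, the KO difference was lower in females than in males at p under 0.05 in 11 of 27 genes and higher in 0. The share of all 13178 genes, both directions together, was 11.5%. The KO difference was lower in the Res than in the WDA experiment in 5 of 27 and higher in 0, against 6.21% of 12940 genes in both directions together. The list stood out by its difference in these Res females, whose libraries enter both interactions. The counts therefore describe the list and do not test it. For Hspa5 the difference between the sexes was -1.43 ± 0.43 on the log2 scale (edgeR adjusted p = 0.277). No gene reached an adjusted p under 0.05 in either interaction (smallest 0.265 for sex and 0.782 for stage), while DESeq2 called 78 and 1.

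Other lists varied in how they compared. Splicing factors had a median of 0.01 in Res males and -0.10 in WDA females, where 4 were lower and 1 higher. Heat shock genes had a median of 0.22 in Res males, with 3 higher, and -0.10 in WDA females, with 4 lower. Hspa1b was at 37.7, 22.1 and 16.9 CPM in WT and 8.32, 6.73 and 5.06 CPM in KO on WDA (-1.93 ± 0.33), the same direction as after resolution, and was higher in KO males (1.23 ± 0.48). The immediate early genes had a positive median in all 3 comparisons, 0.69 in Res females, 0.29 in Res males with 4 higher, and 0.25 in WDA females with 2 higher and 2 lower. Fos was higher without overlap in males, at 0.930, 0.986 and 2.03 CPM in WT and 2.57, 3.12 and 3.88 CPM in KO (1.28 ± 0.38). The major urinary proteins had medians of 0.19 and 0.78, and the linker and core histones of -0.06 and -0.06. Matrix and macrophage genes lay further below WT on WDA than after resolution, with medians in WDA females of -1.14 for the extracellular matrix list (4 lower), -0.91 for the metalloproteinases (5 lower) and -2.44 for the scar-associated macrophage markers (9 of 13 lower), against 0.14, -0.0027 and -0.06 in Res males. Spp1 on WDA was at 13, 18.7 and 445 CPM in WT and 16.8, 15.8 and 14.1 CPM in KO, and Col1a1 at 3.46, 4.18 and 74.1 CPM in WT and 3.83, 2.38 and 3.84 CPM in KO. The same single WT mouse was high for both, and the other WT mice were level with the KO mice. The Cyp3a genes had a median of 0.98 with 4 of 9 higher on WDA, against 0.38 with 1 higher in Res females and -0.02 in Res males.

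Of the 15 higher genes with the smallest p, 11 had a positive value in Res males, none at p under 0.05, and 12 in WDA females, with Rnf144a passing (0.70 ± 0.16). Their median log2 fold change was 1.59 in Res females, 0.13 in Res males and 0.39 in WDA females. Of the 15 lower genes, 10 had a negative value in Res males and 12 in WDA females, where Rbm10 (-0.33 ± 0.14), Khdc4 (-0.34 ± 0.14) and Rbm5 (-0.50 ± 0.16) passed, with medians of -1.31, -0.09 and -0.36. The interaction with sex had p under 0.05 in 13 of the higher and 14 of the lower genes, and that with stage in 9 and 10. These genes were chosen for their difference in Res females, which favors a difference from any other set of mice, so the counts describe and do not test them. Kdm5c, lower in Res females, was at 57.7, 55.1 and 52.5 CPM in WT and 59.4, 52.4 and 69.2 CPM in KO in males (0.15 ± 0.14) and had a log2 fold change of -0.06 ± 0.17 on WDA.

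**Figure D5:**
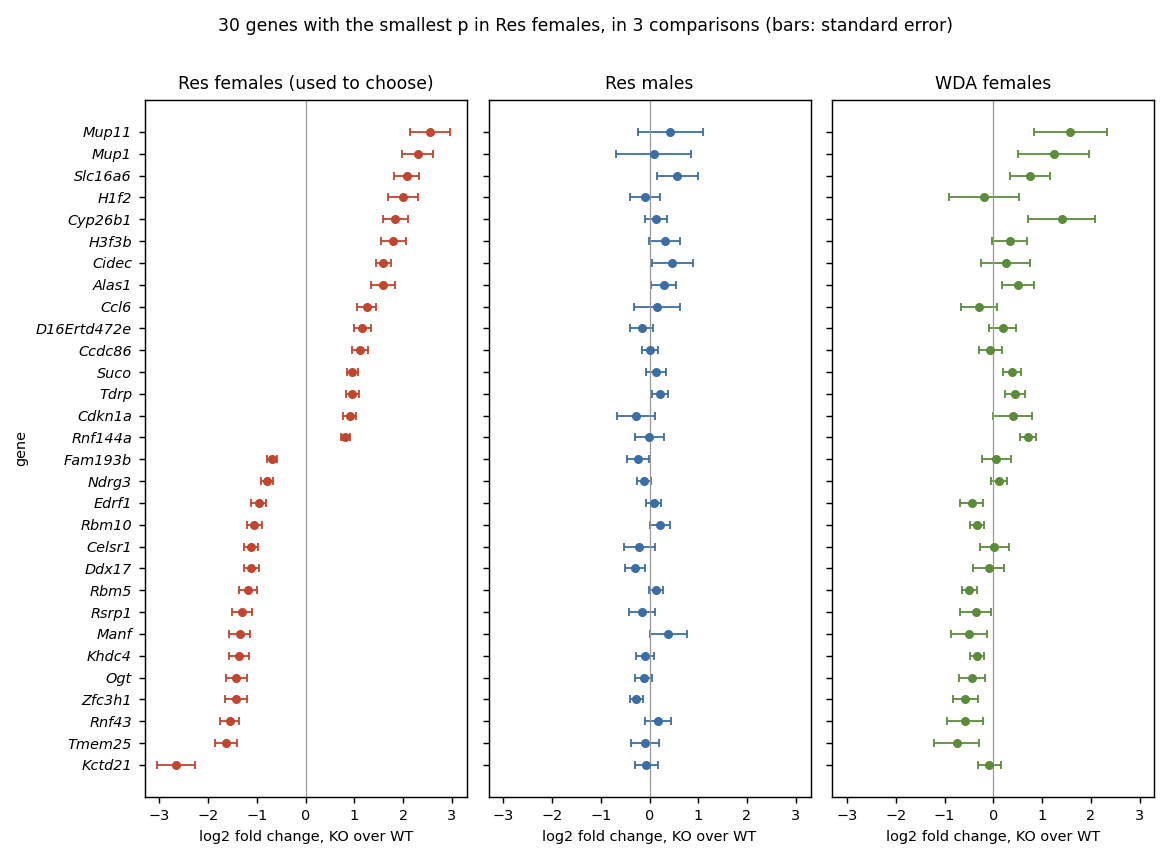
Log2 fold change, KO over WT, with standard error bars, of the 30 genes named by smallest p in Res females (left, used to choose them), Res males (middle) and WDA females (right). The Res male values sit around 0 for most genes, and Mup11, Cyp26b1 and Mup1 have the highest values in WDA females.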

How the data were processed

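RNA from whole liver was sequenced for 3 KO and 3 WT Res female mice, 1 library a mouse, grouped by the sample labels. The authors aligned clean reads to GRCm38.p6 with HISAT and Bowtie2, per the labels and methods, and deposited estimated counts per gene, with FPKM beside them; the counting tool and versions are not given in the sources used here, and about 8% of counts were not whole. FPKM was used only to compare levels between genes. Counts were rounded, filtered with filterByExpr (minimum count 10), scaled by TMM and tested with edgeR 4.0.16 (glmQLFTest, Benjamini-Hochberg over all genes tested, R 4.3.3). DESeq2 1.42.0, other scalings, filters and spreads, and leaving out each mouse were alternatives. The scripts were tested on simulated data. KO by sex and KO by stage were interaction terms.

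The mice, genes and 62 gene lists were chosen with earlier results of these data known. Named were the 15 genes higher and the 15 lower with the smallest p, out of those averaging log2 CPM 2 or more whose KO and WT values lay apart, Kdm5b and its relatives, genes the study names, and the leading or defining members of each list; some of these are not reported here. Libraries of the same group differed by more than sampling noise, so none was counted as a repeat of another. Intervals of single libraries are not given; their totals, all near the median of 17801594 counts, limit precision for genes near 1 CPM.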

Additional observations from a re-analysis of the deposited data

Results flagged for a closer look

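Eif2ak3, the gene of the UPR sensor PERK, was flagged because its groups lay apart in opposite directions in the sexes. It was lower in Res females at p under 0.05, but in Res males 0 genes of the UPR list passed in either direction. In Res females it was at 17.2, 23.7 and 21.3 CPM in WT and 15.1, 13.98 and 14.4 CPM in KO, and in Res males at 12.8, 13.1 and 14.1 CPM in WT and 15.3, 14.1 and 19.6 CPM in KO. Every KO female was below every WT female, and every KO male was at or above the WT males. The difference between the KO effects was -0.81 ± 0.21 on the log2 scale. It was past the unadjusted threshold in edgeR's interaction test but not after adjustment over all genes (adjusted p = 0.265). The gene was picked for this contrast, so the value describes it and does not test it. In WDA females the groups overlapped, at 12.3, 13.4 and 25 CPM in WT and 15.4, 13.7 and 10.5 CPM in KO.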

How the results depend on the processing

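With edgeR, 0 genes were called in either direction, and other settings moved that count. DESeq2 called 219 higher and 388 lower, and a spread estimated over 15 female libraries gave 92 and 245, over 12 Res libraries 54 and 188. With no filter on low counts 1 gene was called higher. Leaving out 1 mouse gave 0 to 343 higher and 0 to 509 lower, the highest without WT mouse 1, and leaving out WT mice 12 and 13 together (added after seeing the data) gave 1 higher and 0 lower. At an unadjusted p under 0.05, leaving out 1 mouse gave 584 to 1594 higher and 933 to 1908 lower, leaving out WT mice 12 and 13 gave 516 and 617, and no scaling factor (also added afterwards) gave 366 and 2387, with the median log2 fold change of all genes moving from -0.02 to -0.19. Genes whose groups did not overlap numbered 1882 to 2839 above and 2218 to 2860 below when 1 mouse was left out, 3497 and 3662 without WT mice 12 and 13, and 590 and 2874 with no scaling factor. For KO by stage DESeq2 called 1 gene, and leaving out a mouse gave 0 to 1 with edgeR. For KO by sex DESeq2 called 78, and leaving out a mouse gave 0 to 241, the highest without WT female mouse 1. In Res males DESeq2 called 7 genes and in WDA females 8. Mup20 turned from -1.79 to 0.061 (log2 fold change) when WT mice 12 and 13 were left out. The causes of the shifts in Mup20 and in the counts by p were not tested.

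In the ER chaperones and protein folding list, 10 to 19 of 27 genes were lower at p under 0.05 when 1 mouse was left out. The share of all genes lower was then 7.31% to 14.9%. The median of the list was -0.29 when WT mice 12 and 13 were left out. Kdm5b kept its direction and its side of the threshold in all 17 alternatives, with log2 fold changes of -0.72 to -0.47. No paired analysis was possible because the mouse numbers of the KO and WT Res females are numbers of different animals and none is shared.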

Other observations

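The transferrin receptor gene Tfrc was higher in KO, at 27.7, 19.1 and 28.1 CPM in WT and 36.5, 53.3 and 46.9 CPM in KO (log2 fold change 0.87 ± 0.19), 1 of 2 members of the iron handling list of 15 that were higher at p under 0.05, with 1 lower. Of 26 nuclear-encoded genes of oxidative phosphorylation, 25 had a positive log2 fold change, but 1 was higher and 0 lower at that threshold, with a median of 0.18. The 27 ribosomal protein genes had 23 positive values, 2 genes higher and 0 lower. Of 15 periportal genes, 0 passed in either direction. The core clock list had 3 of 19 genes higher and 0 lower, and 9 higher and 1 lower without WT mouse 1. Of all genes, 12.4% were higher and 14.9% lower without that mouse.

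Markers of sinusoidal and vascular endothelial cells had 4 of 13 genes higher in KO and 0 lower, with sums of 601, 579 and 486 CPM in WT and 693, 615 and 697 CPM in KO. Resident Kupffer markers had 3 of 13 higher and 1 lower, with sums of 886, 856 and 617 CPM in WT and 1121, 838 and 930 CPM in KO. WT mouse 13 was the lowest for both.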
